A study of Arabidopsis thaliana with 4 samples.

Results

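The plastid genome of Arabidopsis thaliana encodes part of the proteins of the plastid's own ribosome, and 7 of these genes were followed through the growth of a cell culture. The members are the probe sets that the array's annotation gives to 1 gene alone and whose plastid gene symbol is rpl14, rpl16, rpl20, rpl36, rps4, rps15 or rps19. Each of the 7 symbols matched 1 probe set, out of 22746 probe sets compared and 69 that read a single plastid-encoded gene. The rule itself is by annotation, but the 7 symbols were chosen with earlier results of these data known. Outside them, 8 other plastid ribosomal protein genes have a probe set of their own.

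The plastid ribosome is of bacterial type, and its proteins come partly from plastid genes and partly from nuclear genes whose products are imported. Many plastid genes lie in operons, so that neighbouring genes are copied into a shared transcript that is later cut and trimmed. Plastid genes are transcribed by a bacterial-type polymerase, whose core subunits are the products of the plastid rpo genes, and by phage-type polymerases encoded in the nucleus. In non-green tissue the genes for transcription and translation are known to take a larger part of plastid transcription than they do in leaves.

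The cells were MM2d, a suspension culture of A. thaliana kept in the dark on a rotating shaker. A 7-day-old culture, just past its growth phase, was diluted (5 ml into 100 ml of new medium with 3% sucrose, the auxin NAA at 0.5 mg/l and the cytokinin kinetin at 0.05 mg/l), and all 4 groups share this treatment and differ, by their labels, in age. Cells taken on days 1, 3, 5 and 7 after dilution gave 1 Affymetrix ATH1 array each. No day was repeated, so each difference given here is one between single arrays, with no replicate error and no test. The labels do not say whether 1 flask gave all 4 samples.

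Values are MAS5 signals, an intensity per probe set on a linear scale in arbitrary units, as deposited. Signals below 25.26, the 40th percentile of all signals, were raised to that floor, and a probe set above it on at least 1 array was called measured (15292 probe sets). All 7 members lay above the floor on every array, with 52.7 as their lowest signal, so the floor touches none of their ratios. The probe sets above the floor made up 57.0% to 61.6% of an array. As a gauge of measurement error, the log2 ratios of 95 genes with 2 measured probe sets were compared within each gene. The SD of the difference between the 2 probe sets was 0.81 log2 for day 3 against day 1 and 0.91 for day 7 against day 1, but 0.51 for day 5 against day 3 and 0.43 for day 7 against day 5. Probe sets of a gene thus disagreed more in ratios to day 1 than in the others, and the ratio of 3' to 5' signal was lower on the later days than on day 1 for actin (1.05 to 1.18, against 1.45 on day 1) and ubiquitin (1.215, 1.3004 and 1.239 on days 3, 5 and 7, against 1.59 on day 1). For GAPDH it was 0.950, 0.996 and 1.12 on days 3, 5 and 7, against 0.979 on day 1, and so not lower on days 5 and 7. The part of these ratios in the ratios to day 1 was not tested. As a check of the label, 27 nuclear genes of photosynthesis served as markers of green cells, and the annotation used gives 3 of them a probe set of their own. RCA, rubisco activase, had signals of 152, 112, 149.7 and 93.6 on days 1, 3, 5 and 7, and LHCB4.1, a light-harvesting protein, 85.7, 81.8, 77.4 and 71.6, while LHCB4.2 lay below the floor on every array.

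The members fall into those of the rpl16 operon and those elsewhere. In RefSeq's gene order (assembly TAIR10.1) the operon's genes analysed here come in the order rpl23, rpl2, rps19, rpl22, rps3, rpl16, rpl14, rpl36, rpoA, and 4 members, rps19, rpl16, rpl14 and rpl36, lie in it. The other 3 lie apart from it and from each other. rpl20 stands between rps18 and rps12, rps4 between ycf3 and ndhJ, and rps15 between ndhH and ycf1. The order, not the position, of genes is used here, because no source used names the build of the array's annotation.

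All 4 operon members had their highest signal on day 3. rps19, a protein of the small subunit's head in bacterial ribosomes, had signals of 521, 1043, 294 and 319 on days 1, 3, 5 and 7. The day 3 array stood at 2.00 times day 1 and 3.54 times day 5, and days 5 and 7 were the lowest. rpl16, which in bacteria lies close to the site where the large subunit joins amino acids, had signals of 120.2, 299, 197 and 152 on the 4 days. Here day 1 was the lowest, and the signal was 2.48-fold higher on day 3 than on day 1.

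rpl14, a large-subunit protein at the contact between the subunits in bacteria, had signals of 110.2, 278, 145 and 112. Its days 1 and 7 differed by 0.02 log2, while day 3 was 2.53-fold above day 1. rpl36, a small protein of the large subunit that tobacco plastids can lose at the cost of slow, abnormal growth, had signals of 185, 543, 151 and 117. Its day 3 signal was 2.93-fold above day 1 and 4.64-fold above day 7.

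Among the members elsewhere, rps4 went the operon's way and the other 2 did not. rps4, one of the proteins that start small-subunit assembly in bacteria, had signals of 1054, 1767, 519 and 429.5 on days 1, 3, 5 and 7. It was 1.68-fold higher on day 3 than on day 1 and 3.41-fold lower on day 5 than on day 3. rpl20, needed early in large-subunit assembly in bacteria, had signals of 106, 76.7, 199.7 and 132. Its lowest signal fell on day 3, the day on which the operon members were highest, and its highest on day 5. rps15, a small-subunit protein that tobacco plastids can do without, had signals of 93.8, 70.9, 114 and 52.7, with day 3 below its neighbouring days and day 7 lowest.

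**Figure D1:**
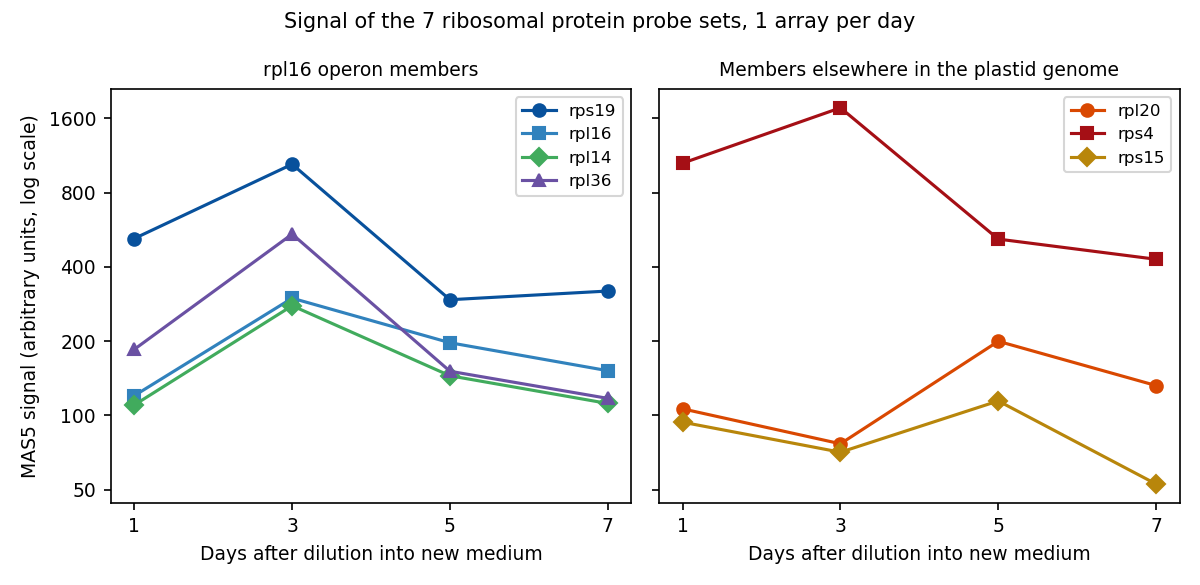
MAS5 signal (arbitrary units, log scale) of the 7 probe sets on days 1, 3, 5 and 7 after dilution, 1 array per day, with the 4 rpl16 operon members on the left and the 3 members elsewhere on the right. Each of the 4 operon members and rps4 peak on day 3, while rpl20 and rps15 are highest on day 5.

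The step from day 1 to day 3 follows the dilution most closely. The 4 operon members were 2.00-fold to 2.93-fold higher on day 3 (log2 ratios of 1.00 to 1.55), and 0 of the 3 members elsewhere differed by 2-fold either way (-0.47 for rpl20, -0.40 for rps15 and 0.75 for rps4). The median log2 ratio was 1.32 in the operon and -0.40 elsewhere, a difference of 1.73, and the ranges of these 4 and 3 members did not overlap. With all 7 single-gene probe sets of the operon the difference was 1.52, and their range of -0.44 to 1.55 overlapped that of the members elsewhere. The 3 of them outside the members had a median of 0.25. Because the members were chosen with earlier results of these data known, the 1.73 and the lack of overlap are descriptions only. The share of all measured probe sets past 2-fold was 4.02% upward and 1.65% downward, and their median log2 ratio was 0.01. For a single gene in bulk cells, a change in the number of plastids and one in RNA per plastid cannot be told apart.

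rps19 sat on the limit. With arrays scaled to a common median its log2 ratio was 0.81, with a common 75th percentile 0.93 and with the hybridisation controls 0.91, which leaves 3 members past 2-fold. With arrays scaled to the median plastid signal rps4 was at 1.15 and rps19 at 1.40, so that 5 members, 1 of them outside the operon, were past 2-fold. The share of all measured probe sets past 2-fold is not given for these scalings. A scaling by a constant moves both groups alike, so the difference between the 4 operon members and the 3 elsewhere was 1.73 under each of these. For comparison, the 90th percentile of the disagreement between probe sets of 1 gene was 1.42 log2 in this step. This was more than 3 of the 4 operon ratios themselves. The difference of 1.73 is between 2 medians, and both probe sets of a gene share their arrays, so this gauge sets no error limit for it.

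The other plastid-encoded genes mostly lay the other way. The 62 outside the members had a median log2 ratio of -0.41 on day 3 against day 1, with 2 higher and 3 lower by 2-fold or more. The 2 were rpl22, itself in the operon, and atpB, a subunit of the plastid ATP synthase. Ranked among all 69 plastid-encoded probe sets from the highest ratio, rpl36, rpl14 and rpl16 held places 1, 2 and 3, rps19 place 6 and rps4 place 9. rps15 was at place 36 and rpl20 at place 43. Set against the plastid median of -0.36, the 4 operon members stood 1.36 to 1.91 log2 above it, and rps15 and rpl20 were 0.05 and 0.11 below it.

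The rest of the operon gave its own readings of the same step. rpl22, whose product lines the tunnel for the growing chain in bacteria, had signals of 521, 1128, 429.7 and 317 on days 1, 3, 5 and 7. Its log2 ratio for day 3 against day 1 was 1.11, close to that of its neighbour rps19. rps3, a protein at the entry of the messenger in bacteria, had signals of 1017, 1205, 620.1 and 519.5 and a log2 ratio of 0.25. This was below its neighbours rpl22 (1.11) and rpl16 (1.31). Both gaps were smaller than the 90th percentile of 1.42 log2 between probe sets of 1 gene in this comparison. rpoA, the alpha subunit of the plastid's bacterial-type polymerase and the last gene of the operon, was lower on day 3 (517) than on day 1 (700.2), a log2 ratio of -0.44. Beyond it, petD, of the cytochrome b6f complex, was at -0.96. petB, the gene after petD and of the same complex, was at 0.92. Its highest signal fell on day 3 (1361, against 720 on day 1), as in the operon members.

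At the other end of the operon, rpl2 and rpl23 each have 2 copies in the plastid's inverted repeat, and their probe sets read both copies. They are in no count or median here. rpl2 had signals of 394, 1576, 390.0 and 526 on days 1, 3, 5 and 7, and rpl23 of 251, 856, 226 and 219. Both were higher on day 3 than on day 1, with log2 ratios of 2.00 and 1.77, above those of all 4 operon members. From rpl23 to rpl36 every reading was above 0, with rps3 nearest to it, and the reading of rpoA was below 0.

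**Figure D2:**
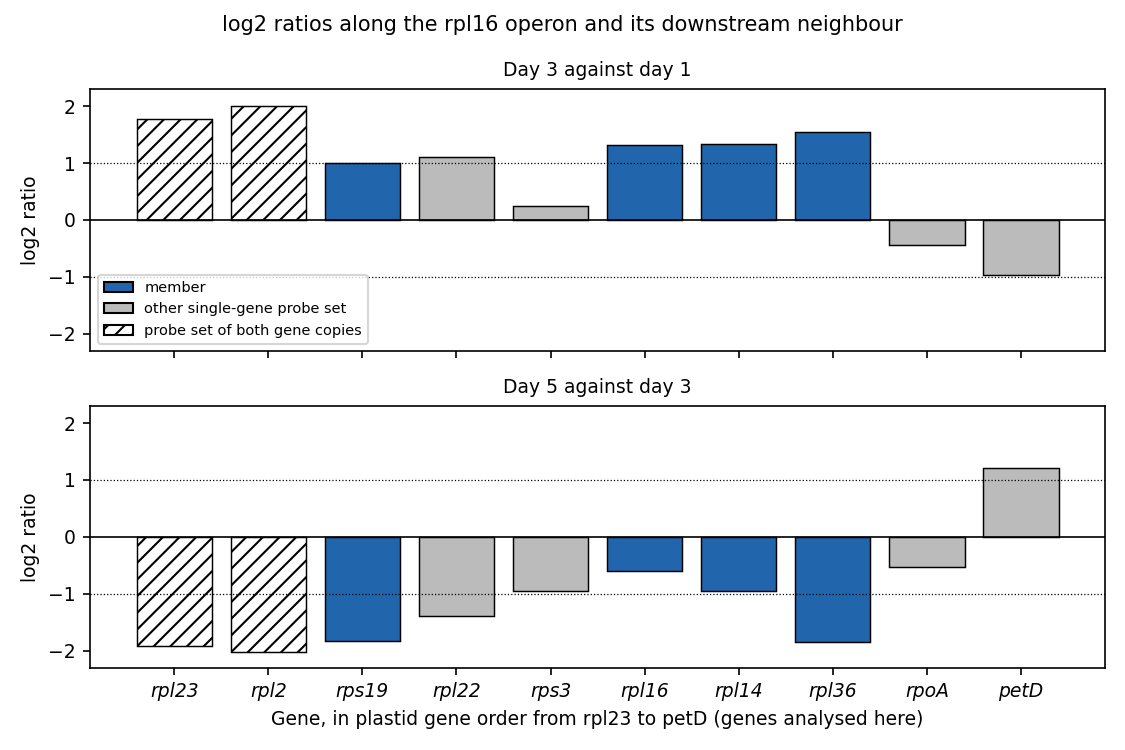
log2 ratios of day 3 against day 1 (top) and day 5 against day 3 (bottom) along the operon from rpl23 to rpoA, with petD beyond it; blue bars are members, grey bars other single-gene probe sets, hatched bars probe sets of both copies of a gene, and dotted lines mark 2-fold. The bars from rpl23 to rpl36 are above 0 in the top panel and below 0 in the bottom panel, rpoA is below 0 in both, and petD is at -0.96 and 1.21.

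All single-gene ribosomal protein probe sets of the plastid, members or not, were then counted, arrays being scaled as deposited. In the operon 5 of 6 were at least 2-fold higher on day 3 than on day 1, and elsewhere 0 of 9. Of all measured probe sets 4.02% were at least 2-fold higher. The 5 include the 4 operon members, which were chosen with earlier results of these data known. rps19 among them sat on the limit, at 2.00-fold. The 9 elsewhere split, with 4 above 0 and 5 below. Besides rps4, those above 0 were rpl33 (0.46), rps18 (0.45) and rpl32 (0.43). Besides rpl20 and rps15, those below 0 were rps14 (-0.95), rps2 (-0.67) and rps16 (-0.41).

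In each of the 7 members the log2 ratio of day 5 against day 3 had the opposite sign to that of day 3 against day 1. Of the 7 members, 3 were at least 2-fold lower on day 5, namely rpl36 (3.60-fold), rps19 (3.54-fold) and rps4 (3.41-fold), against 3.81% of all measured probe sets. rpl14 and rpl16 were lower too, by less, with log2 ratios of -0.94 and -0.60. rpl20 was the 1 member at least 2-fold higher on day 5, at 2.60-fold, against 6.24% of all measured probe sets, and rps15 had a log2 ratio of 0.69. Both comparisons use the day 3 array, so their values for a gene are not independent.

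The operon's median log2 ratio was -1.38 and that of the members elsewhere 0.69, a difference of -2.07, but the ranges overlapped because rps4 (-1.77) lay inside the operon's range of -1.85 to -0.60. The operon difference had been 1.73 in the step from day 1 to day 3, with rps4 outside the operon's range. The disagreement between probe sets of 1 gene was smaller here, with a 90th percentile of 0.81 log2.

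Against the other plastid genes rpl36, rps19 and rps4 stood at the bottom, while rpl14 and rpl16, also lower, did not. The 62 plastid-encoded probe sets outside the members had a median log2 ratio of 0.46 on day 5 against day 3, with 12 higher and 2 lower by 2-fold or more. The 2 were rpl22 (-1.39) and rpoC1 (-1.05), a catalytic subunit of the bacterial-type polymerase. Ranked from the highest of all 69, rpl36, rps19 and rps4 held places 69, 68 and 67, rpl14 place 62 and rpl16 place 58, while rpl20 was at place 8 and rps15 at place 30. The difference from the plastid median (0.32) was -2.17 for rpl36, -2.15 for rps19 and -2.09 for rps4. With arrays scaled to the median plastid signal, rpl20 had a log2 ratio of 0.78 and rps15 of 0.09.

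All 7 single-gene probe sets of the operon lay below 0 on day 5 against day 3, from -1.85 to -0.52, with rps3 at -0.96 and rpoA at -0.52. The probe sets of both copies of rpl2 and rpl23 were at -2.01 and -1.92. Of the 9 ribosomal protein genes elsewhere, 5 were above 0 and 4 below. rps14 (1.09) and rps16 (0.94) were above it with rpl20 and rps15, as was rps2 (0.21). rpl32 (-0.97), rps18 (-0.71) and rpl33 (-0.18) were below it with rps4.

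**Figure D3:**
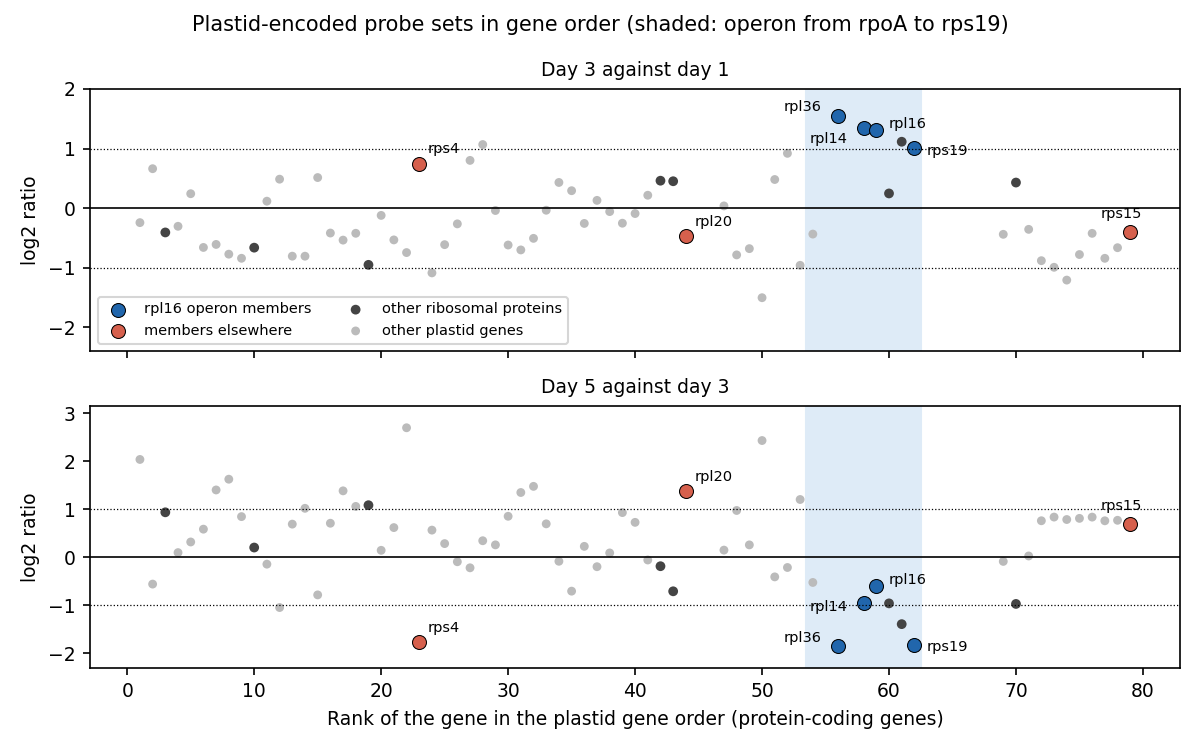
log2 ratios of day 3 against day 1 (top) and day 5 against day 3 (bottom) for the 69 single-gene plastid probe sets, placed by the rank of the gene in RefSeq's plastid gene order; the shaded band runs from rpoA to rps19, and dotted lines mark 2-fold. The operon members stand high in the top panel and low in the bottom panel, with rps4 outside the band doing likewise, while rpl20 and rps15 lie among the other plastid genes.

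The members elsewhere were set beside their own neighbours. rpl20 and the part of rps12 that lies next to it are known to share transcripts in plastids. The annotation used does not say which part of rps12 a probe set reads, so whether it reads such a transcript was not tested. rps12, a protein of the decoding site, has 2 probe sets, each annotated to 2 gene IDs of the same symbol, with log2 ratios of 1.45 and 1.24 for day 5 against day 3, beside 1.38 for rpl20. For day 3 against day 1 they gave -0.52 and 0.33, beside -0.47 for rpl20, so the 2 probe sets of rps12 disagreed in sign there, by 0.85 log2. On its other side rps18 and rpl33 took another course, with log2 ratios of -0.71 and -0.18 for day 5 against day 3.

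rps15 went the same way as the NDH genes beside it up to day 5, as did the median of the plastid genes. ndhH, ndhA and ndhI, subunits of the plastid NADH dehydrogenase-like complex, had log2 ratios of -0.67, -0.84 and -0.43 for day 3 against day 1, beside -0.40 for rps15. For day 5 against day 3 they had 0.77, 0.76 and 0.84, beside 0.69. The medians of all 69 plastid-encoded probe sets were -0.36 and 0.32 in these steps, so the shared direction is not particular to these neighbours. From day 5 to day 7 the 4 genes parted, since rps15 was at -1.12 and the 3 ndh genes between -0.47 and -0.11. ycf1, on the other side of rps15, is read by a probe set of 2 gene IDs and had signals of 491, 733, 269 and 189.7 on days 1, 3, 5 and 7, highest on the day on which rps15 was below its neighbouring days.

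rps4 resembled neither neighbour. ycf3, which acts in photosystem I assembly, had signals of 153, 90.8, 591 and 356 on the 4 days, and ndhJ had 251, 118, 175 and 103. Both were lower on day 3 than on day 1, with log2 ratios of -0.75 and -1.09, beside 0.75 for rps4. For day 5 against day 3 they were at 2.70 and 0.57, beside -1.77 for rps4.

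Day 7 against day 5 brought the culture to the age at which its inoculum had been taken. rps15 was the 1 member at least 2-fold lower, by 2.17-fold, its signal being 52.7 on day 7 against 114 on day 5. Of all measured probe sets 2.71% were at least 2-fold lower. It was not past 2-fold with arrays scaled to the hybridisation controls (log2 ratio -0.78) or to the median plastid signal (-0.72). 0 members were at least 2-fold higher, against 2.94% of all measured probe sets. rpl16, rpl14 and rpl36 lay close together, at -0.38, -0.37 and -0.37, while rps19 stood at 0.12.

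The medians were -0.37 for the operon and -0.60 elsewhere, a difference of 0.23, less than the SD of 0.43 between probe sets of the same gene, and the ranges overlapped. The 62 other plastid-encoded probe sets had a median of -0.46, so the operon members and rps4 (-0.27) were 0.07 to 0.57 log2 above the median of all 69 (-0.45). rps15 stood 0.67 below that median and rpl20 (-0.60) 0.15 below it. With the hybridisation controls as scale the median of all measured probe sets moved by 0.30, so a small negative value may not keep its sign. rps4 was then above 0 (0.06), while rpl16 (-0.04), rpl14 (-0.04) and rpl36 (-0.03) stayed just below it.

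Day 7 against day 1 spanned the course. Only rps4 was at least 2-fold lower among the 7 members (2.45-fold, with signals of 429.5 on day 7 and 1054 on day 1), and 0 were at least 2-fold higher. Over all measured probe sets 10.5% were at least 2-fold lower and 13.1% at least 2-fold higher. rps15 (-0.83), rps19 (-0.71) and rpl36 (-0.66) were lower by less, and rpl14 (0.02), rpl20 (0.31) and rpl16 (0.34) lay near or above 0. rps15 was past 2-fold as well with a common median as the scale (-1.12) or after quantile normalization (-1.03). The operon's median was -0.32 and that elsewhere -0.83, with overlapping ranges, and the difference of 0.51 was 0.13 when all 7 single-gene probe sets of the operon were taken.

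In this comparison the operon members spanned 1.04 log2, from -0.71 for rps19 to 0.34 for rpl16, after a span of 0.55 log2 on day 3 against day 1. The 90th percentile of the disagreement between probe sets of 1 gene was 1.47 log2 for day 7 against day 1. Differences of the size of this span thus also occur between probe sets of the same gene. The adjacent genes rpl16 and rpl14 ended higher than rps19 and rpl36, which are not adjacent. On day 5 against day 1 rpl16 and rpl14 were at 0.71 and 0.39, and rps19 and rpl36 at -0.82 and -0.30.

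**Figure D4:**
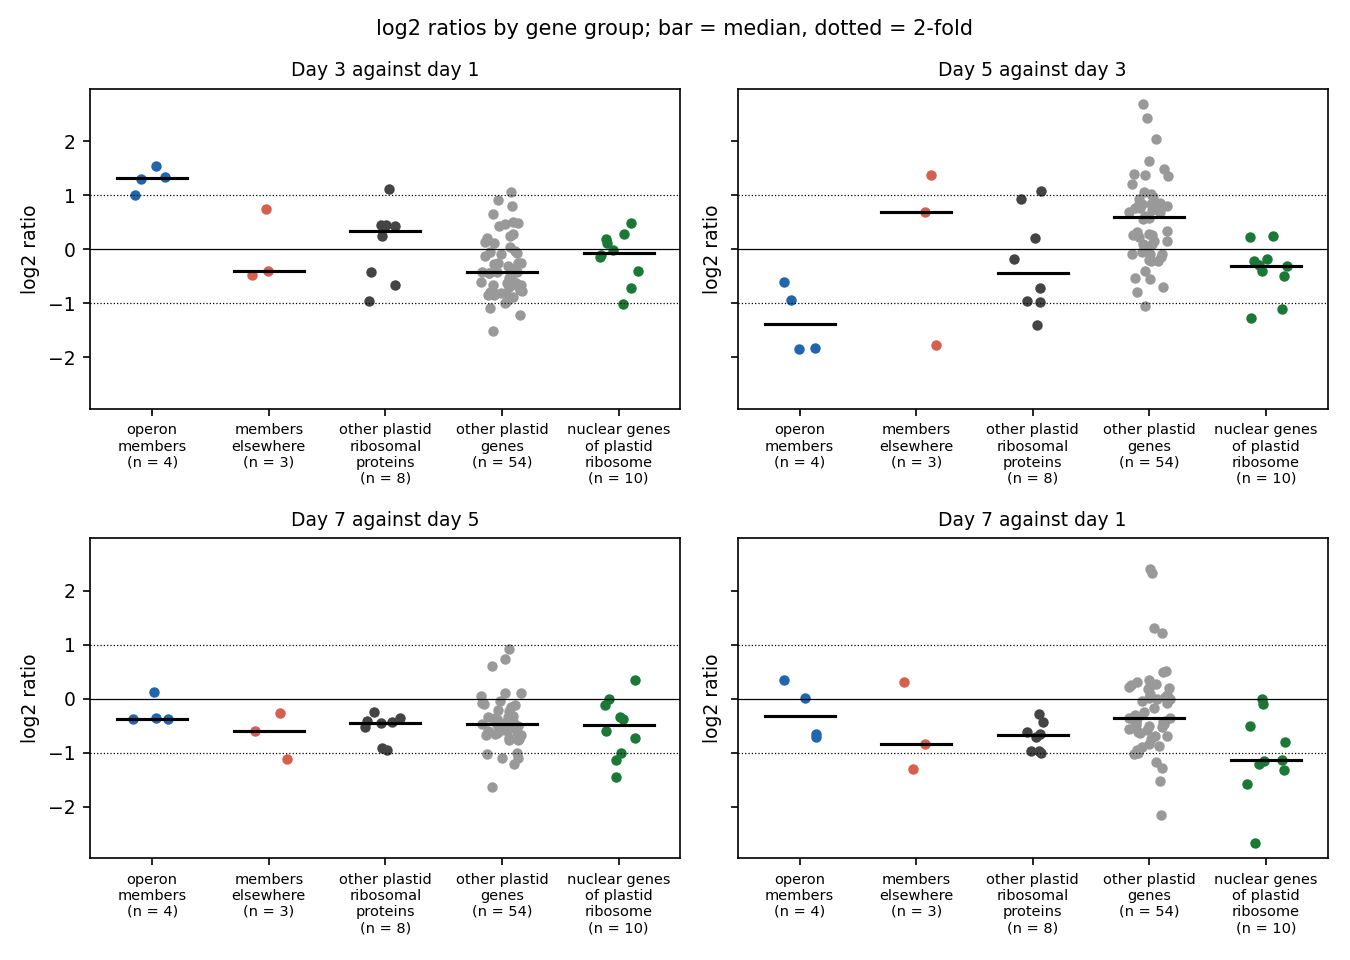
log2 ratios in the 4 comparisons for the 4 operon members, the 3 members elsewhere, the 8 other single-gene plastid ribosomal protein probe sets, the 54 other plastid genes and 10 nuclear genes of the plastid ribosome; each point is a probe set, bars are medians and dotted lines mark 2-fold. The operon members lie above the medians of the other groups on day 3 against day 1 and below them on day 5 against day 3.

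How alike the time courses were was measured as the root mean square difference of log2 signals, each centred on its own mean over the 4 arrays. The 6 pairs of operon members had a median difference of 0.43 log2 (0.17 to 0.60), against 0.77 (0.21 to 1.27) for the 12 pairs of an operon member with a member elsewhere. Over all 2346 pairs of single-gene plastid probe sets the median was 0.49. The closest pair was rpl16 with rpl14, at 0.17, and the most distant rpl20 with rpl36, at 1.27. rps4 had a median difference of 0.45 from the 4 operon members, with 0.21 to rps19 and 0.32 to rpl36. rpl20 and rps15, at 0.50 from each other, were 0.66 to 1.27 from the operon members.

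**Figure D5:**
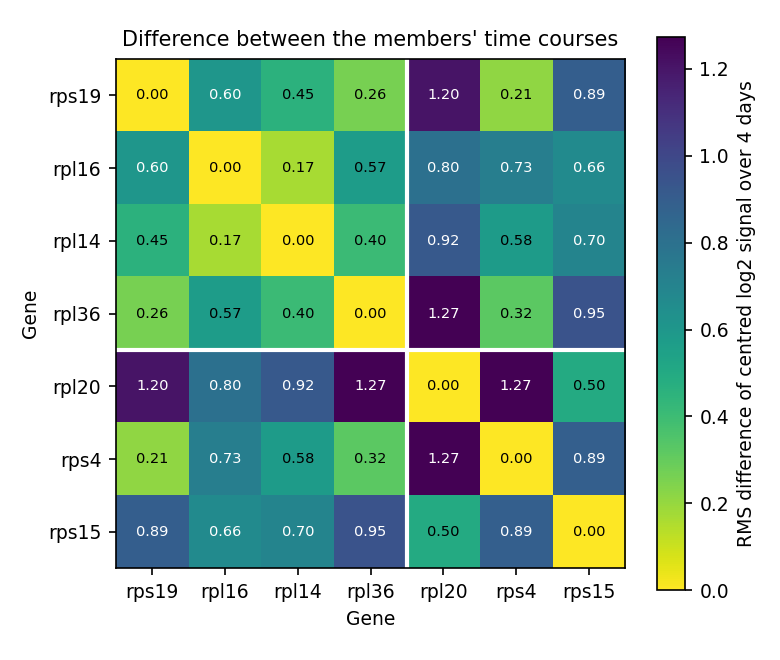
Root mean square difference (log2) between the centred time courses of each pair of members over 4 arrays, with white lines dividing the operon members from those elsewhere. rps19, rpl36 and rps4 form a close set, as do rpl16 and rpl14, and rpl20 is the farthest from the operon members.

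Among the other plastid-encoded probe sets, rpl22 was the most like the mean of the 4 operon members (0.17 log2), followed by rpoC1 (0.30) and rps18 (0.31). For rps4 the closest were rpl22 (0.28), rpl32 (0.30) and rps3 (0.33), all ribosomal proteins. For rps15 they were rps16 (0.17), psbL of photosystem II (0.18) and rbcL, the large subunit of rubisco (0.21). For rpl20 they were genes of photosynthesis, with ycf4 at 0.09, psbC at 0.10 and psaI at 0.11. rpl16 and rpl14 were closest to petB of the cytochrome b6f complex (0.18 and 0.26) and to matK, the plastid's intron maturase (0.26 for both).

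The search was also made among 346 probe sets of named genes that varied 2-fold or more over the arrays and carry no suffix for cross-hybridisation, the members left out. The mean of the operon was closest to ARL (0.17), rpl22 (0.17) and PDC2, a pyruvate decarboxylase (0.21). PDC2 had signals of 205, 573, 259.6 and 257 on days 1, 3, 5 and 7 and was also the closest to rpl14 alone (0.14). rps4 was closest to PDF1A, a peptide deformylase (0.18), and rps15 to ATPC1, the nuclear-encoded gamma subunit of the plastid ATP synthase (0.06). With 4 arrays a small difference is a description of these arrays only.

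Nuclear genes for proteins of the same ribosome were given by a list of 37 locus codes taken from general knowledge, of which 10 have a probe set of their own. The median log2 ratio of the 10 was -0.06 for day 3 against day 1, with 0 higher and 1 lower by 2-fold or more (AT5G65220, -1.01). For day 5 against day 3 it was -0.30, with AT2G43030 (-1.27) and AT1G29070 (-1.10) at least 2-fold lower. Over the whole course 6 of 10 were at least 2-fold lower on day 7 than on day 1, against 1 of the 7 plastid-encoded members and 10.5% of all measured probe sets, with a median of -1.14.

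The largest differences over the course were those of AT5G65220 (-2.68, with signals of 36.8 on day 7 and 236 on day 1), AT5G47190 (-1.58), AT1G29070 (-1.32) and AT3G54210 (-1.21). AT3G13120 (-0.10) stayed near 0, and AT5G24490 was above the floor on day 3 alone. Of 8 nuclear genes listed for plastid transcription and 10 for plastid RNA processing, 1 each has a probe set of its own. AT5G15700 had log2 ratios of 0.12, -0.14 and -0.91 in the 3 successive steps, and AT5G42310 of 0.52, -0.41 and 0.73.

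The plastid genes for the bacterial-type polymerase gave 4 single-gene probe sets. Their median log2 ratio was -0.16 for day 3 against day 1 and -0.33 for day 5 against day 3. rpoC1 had signals of 384, 537, 259.98 and 251 on days 1, 3, 5 and 7, a day 3 maximum as in the operon, whereas rpoB, next to it in the same cluster, had 191, 109, 176 and 123, with its minimum on day 3. rpoC2 (0.12) was near 0 on day 3 against day 1. Of the other plastid genes listed, clpP, a protease subunit, had log2 ratios of 0.04, 0.15 and -0.09 in the 3 successive steps, accD, of fatty acid synthesis, -0.62, 0.86 and -0.22, and matK 0.66, -0.56 and -0.15. Mitochondrial ribosomal protein genes of the same symbols have no single-gene probe set here and were not analysed.

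The day of the highest signal was counted for the members and the other plastid genes. Of the 7 members 5 were highest on day 3 and 2 on day 5. Day 3 held the maximum of 15 of the 62 other plastid-encoded probe sets, day 5 that of 26, day 1 that of 16 and day 7 that of 5. The minimum lay on day 3 for 1 of the 7 members, rpl20, and for 28 of the 62.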

How the data were processed

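Biotin-labelled total RNA from 4 samples of suspension cells, 1 a day, was read on ATH1 arrays, per the labels. The deposited values are signal intensities made by the authors with MAS5, per the submitters' processing notes (version not named there). After trimming 2% at each end the arrays shared a mean of 100.0, and they were compared as deposited, and a change in RNA content per cell leaves no trace. Plastid transcripts mostly lack a long poly(A) tail, and the labels do not say how the RNA was primed, whose part in the signals was not tested.

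The table holds 22810 probe sets, 64 of them controls that were left out. The annotation used gives 1 gene to 13513 and several to 503, and 8730 are not listed in it; 13436 single-gene probe sets matched RefSeq (TAIR10.1), 69 of them plastid genes. Genes of several IDs were named only where all IDs are plastid copies with 1 symbol. log2 ratios, medians and counts past 2-fold were computed with Python 3.11.15, numpy 2.4.6 and pandas 2.3.3, without tests. The counting was tested on simulated data. All members were named, with the other plastid genes for gene expression; of larger lists, the 4 largest differences. atpB, petD, ycf1, ycf3, rps12 and the neighbouring ndh genes were named after their values were seen, and so was petB where it is set beside petD. Members and lists were chosen with earlier results of these data known. The alternatives tried were other floors, scalings and fold limits and other sets of operon genes.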

Additional observations from a re-analysis of the deposited data

How the results depend on the processing

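The members' ratios were recomputed with 3 other floors, 5 other scalings, 2 other fold limits, without cross-hybridising probe sets and with all single-gene probe sets of the operon. A log2 value was held to have moved where it changed by more than the SD between probe sets of 1 gene. A count was held to have moved where it changed by over 1.5 times. By these limits 405 of 428 values had not moved, and 0 of the log2 ratios of at least 1 in size changed sign. Part of the 428 could not move whatever the data, so the 405 does not measure robustness. The other floors and the removal of cross-hybridising probe sets changed no value of a member, since all 7 lay above each floor and carry no such suffix. A scaling by a constant cannot change the difference between the operon members and those elsewhere. Of 224 member ratios 8 changed sign, all of them small (rpl16, rpl14, rpl36 and rps4 on day 7 against day 5 and rpl14 on day 7 against day 1). With arrays scaled to the median plastid signal, day 5 against day 3 gave medians of -1.99 in the operon and 0.088 elsewhere, with 0 members at least 2-fold higher and 5 lower, since this scaling takes out the higher plastid median of day 5. On day 7 against day 5, 0 members were at least 2-fold lower with that scaling or with the hybridisation controls. On day 7 against day 1, 2 members were at least 2-fold lower with a common median or after quantile normalization. With a 3-fold limit 0 members were higher on day 3 against day 1, 0 higher on day 5 against day 3, and 0 lower on day 7 against day 5 or day 1. With a 1.5-fold limit 2 were higher and 5 lower on day 5 against day 3. At that limit 2 were lower on day 7 against day 5 and 4 lower on day 7 against day 1. The shares of all measured probe sets at these limits and scalings are not given, so these counts cannot be set against the whole array. No paired analysis was possible because each day has 1 array. Without replicates the spread between cultures cannot be given.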

Other observations

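Neighbouring plastid genes had more similar time courses than plastid genes in general on these arrays. Over 64 pairs of adjacent genes with single-gene probe sets the median root mean square difference of centred log2 signals was 0.33, against 0.49 over all 2346 pairs, with a range of 0.08 to 1.83 among the adjacent pairs. The pairs share arrays and genes, so this is a description with no test. Among plastid gene groups, the 10 NDH complex genes had a median log2 ratio of -0.72 for day 3 against day 1 and 0.76 for day 5 against day 3. The 7 photosystem I genes, assembly factors included, had -0.54 and 0.84. Both groups were opposite in sign to the 4 operon members in both steps (1.32 and -1.38). So were the medians of photosystem II (-0.26 and 0.26), cytochrome b6f (-0.17 and 0.83) and ATP synthase (-0.64 and 0.72). The median of all 69 plastid-encoded probe sets (-0.36 and 0.32) was too, so these signs are not particular to 1 group. The 4 RNA polymerase genes had -0.16 and -0.33.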
